A study of Mus musculus with 24 samples.

Results

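The genes described here are the mouse DNA methylation writers, erasers and readers, taken by name from the 3 deposited expression tables. They are Dnmt1, Dnmt3a, Dnmt3b, Dnmt3l, Uhrf1, Tet1, Tet2, Tet3, Zfp57 and Tdg, 10 of 46078 genes in the first and second tables and 10 of 55573 in the third. All 10 are listed in every table, and 9 of the 10 passed the filter on low values in every table, while Tdg passed in none. Transcript levels were measured in 24 RNA libraries, 12 groups of n = 2, taken from MII oocytes and from pools of 2-cell or 4-cell mouse embryos. MII oocytes are the ovulated eggs arrested in the second meiotic division.

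The PR-DUB set compared embryos overexpressing (OE) PR-DUB, the BAP1-containing complex that removes ubiquitin from histone H2A, with its control (CTR) at both stages. The KDM6B set did the same for KDM6B, a demethylase of lysine 27 on histone H3. Both sets came from wild-type parents, B6/DBA females by PWK males. The Eed set compared 4-cell embryos of Eed CKO mothers (maternal knockout, matKO) with those of control mothers, all B6/129mixed by PWK, with wild-type fathers; EED belongs to PRC2, the complex that methylates lysine 27 of histone H3. Neither the Cre driver nor what the control embryos received is given in the labels. The MII oocytes were wild-type B6/DBA, and the late 2-cell embryos had wild-type B6/DBA parents on both sides. A PR-DUB library held 15 embryos at the 2-cell stage and 19 (CTR) or 16 (OE) at the 4-cell stage, and a KDM6B 2-cell library held 17 or 18. The series compared embryos depleted of either histone mark with their controls to see how the transcriptome changes.

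DNMT1 copies methylation onto the new strand after replication, and UHRF1 brings it to hemimethylated sites. DNMT3A and DNMT3B methylate new sites, with DNMT3L as a catalytically inactive partner that is needed in the oocyte. TET1, TET2 and TET3 oxidise methylcytosine, TET3 being the enzyme of the mouse zygote, and TDG removes the oxidised bases. ZFP57 is a zinc finger protein that binds methylated imprinting control regions and keeps them methylated while the rest of the embryonic genome loses methylation. Much of the RNA of the early embryo is inherited from the oocyte and is degraded as the embryo's own genome is activated at the 2-cell stage.

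4 of these genes were called in the PR-DUB comparison at the 4-cell stage, and their promoter windows are printed here because they differ in CpG content, the substrate of the proteins themselves. The sequences are RefSeq windows of GRCm38.p6, each of 300 bases with 250 before and 50 after an annotated transcript start, written 5′ to 3′ on the gene's strand with each CpG in capitals. The Dnmt3a window is chr12:3806730-3807029 (plus strand), that of Dnmt3b chr2:153649199-153649498 (plus), that of Tet2 chr3:133544341-133544640 (minus) and that of Zfp57 chr17:37000913-37001212 (plus).
Dnmt3a: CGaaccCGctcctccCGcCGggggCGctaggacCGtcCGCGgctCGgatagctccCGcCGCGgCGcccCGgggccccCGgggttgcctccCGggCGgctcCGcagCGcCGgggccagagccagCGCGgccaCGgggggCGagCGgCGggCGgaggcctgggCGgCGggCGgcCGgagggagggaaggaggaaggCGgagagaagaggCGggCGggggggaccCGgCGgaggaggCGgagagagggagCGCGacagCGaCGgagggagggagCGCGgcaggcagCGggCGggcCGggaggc
Dnmt3b: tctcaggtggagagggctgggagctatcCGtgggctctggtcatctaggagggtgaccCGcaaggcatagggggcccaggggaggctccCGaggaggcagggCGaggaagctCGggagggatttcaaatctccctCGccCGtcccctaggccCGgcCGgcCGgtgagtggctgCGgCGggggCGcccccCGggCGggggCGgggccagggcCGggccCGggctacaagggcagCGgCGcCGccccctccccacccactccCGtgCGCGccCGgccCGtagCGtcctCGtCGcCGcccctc
Tet2: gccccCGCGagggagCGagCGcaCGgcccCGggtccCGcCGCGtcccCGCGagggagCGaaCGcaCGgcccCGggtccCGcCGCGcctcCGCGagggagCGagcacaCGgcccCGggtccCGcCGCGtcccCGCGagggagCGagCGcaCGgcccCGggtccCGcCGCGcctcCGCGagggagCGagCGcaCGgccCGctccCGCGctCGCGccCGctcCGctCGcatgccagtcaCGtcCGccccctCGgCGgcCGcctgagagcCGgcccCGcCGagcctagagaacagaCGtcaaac
Zfp57: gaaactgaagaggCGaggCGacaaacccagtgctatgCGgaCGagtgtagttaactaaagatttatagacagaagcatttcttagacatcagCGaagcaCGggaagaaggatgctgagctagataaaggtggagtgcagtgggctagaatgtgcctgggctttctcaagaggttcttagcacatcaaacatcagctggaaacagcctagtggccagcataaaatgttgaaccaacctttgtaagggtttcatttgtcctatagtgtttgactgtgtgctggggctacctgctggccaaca

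The Tet2 window held 57 CpG, the Dnmt3a window 46, the Dnmt3b window 30 and the Zfp57 window 6, against a median of 7 over 32851 windows of the same length. The other annotated windows held 47 and 18 CpG for Dnmt3a and 9 and 4 for Zfp57. The GC box GGGCGG, searched on both strands, was found in 35.7% of all windows; it occurred 6 times in the Dnmt3a window, 4 times in that of Dnmt3b, 1 time in that of Tet2 and not in that of Zfp57. The letters CCAAT, on either strand, occurred in 37.4% of all windows and in none of these 4. Among the other members, the CpG count per window was 17 for Tet1, 22 for Tet3, 26 for Tdg, 12 and 33 for Uhrf1, 3 to 6 for Dnmt3l, and 33, 12 and 2 for the 3 Dnmt1 windows, the last being the one farthest upstream. These counts describe the sequence. No methylation, binding or use of a given transcript start was measured in these libraries, and a relation to the changes in level was not tested.

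The libraries listed 10855 to 11801 genes at 1 FPKM (fragments per kilobase of transcript, scaled to the depth of the library) or more, and the 2 libraries of a group correlated across genes at 0.960 to 0.988. The libraries held 11.5 to 20.5 (in units of 1e6) fragments if the smallest step of FPKM times transcript length is 1 fragment. A value of the 9 measured members then rests on 62.3 to 76389 fragments at the length of each gene's longest transcript. Shorter transcripts would give fewer. FPKM is a share of the library, so levels are relative to the other RNA in the pool; in such bulk pools fewer cells of a type and less RNA per cell cannot be told apart. Of the targeted genes, Kdm6b was listed at 9809 to 14237 FPKM in KDM6B OE and at 14588 to 14735 FPKM in its CTR at the 2-cell stage, so that the OE libraries did not exceed their controls. At the 4-cell stage it was at 547 to 597 FPKM in OE and 401 to 571 FPKM in CTR, overlapping, while the PR-DUB libraries held 5.24 to 26.4. The KDM6B comparisons are therefore given by their labels, libraries labelled OE against libraries labelled CTR. Bap1 lay at 20.3 to 22.0 FPKM in PR-DUB OE against 16.1 to 18.3 in CTR at the 2-cell stage, and at 8.81 to 10.6 against 6.02 to 6.20 at the 4-cell stage. Eed lay at 22.7 and 26.9 FPKM in matKO against 28.5 and 33.1 in its control, which at the level of the whole gene does not check the deletion. Summed over 7 of 8 listed oocyte genes (Zp3, Gdf9, Bmp15 and others), the MII libraries stood at 3521 to 3646 FPKM and every 4-cell library at 65.9 to 180. Of 12 listed cumulus and granulosa genes, none reached 1 FPKM in an embryo library, where the sum was 0.0550 to 1.85 FPKM; 2 did in the MII libraries, where the sum was 9.26 to 9.76. Of 5 sperm genes, the sum was at most 8.94 FPKM in any library.

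**Figure D1:**
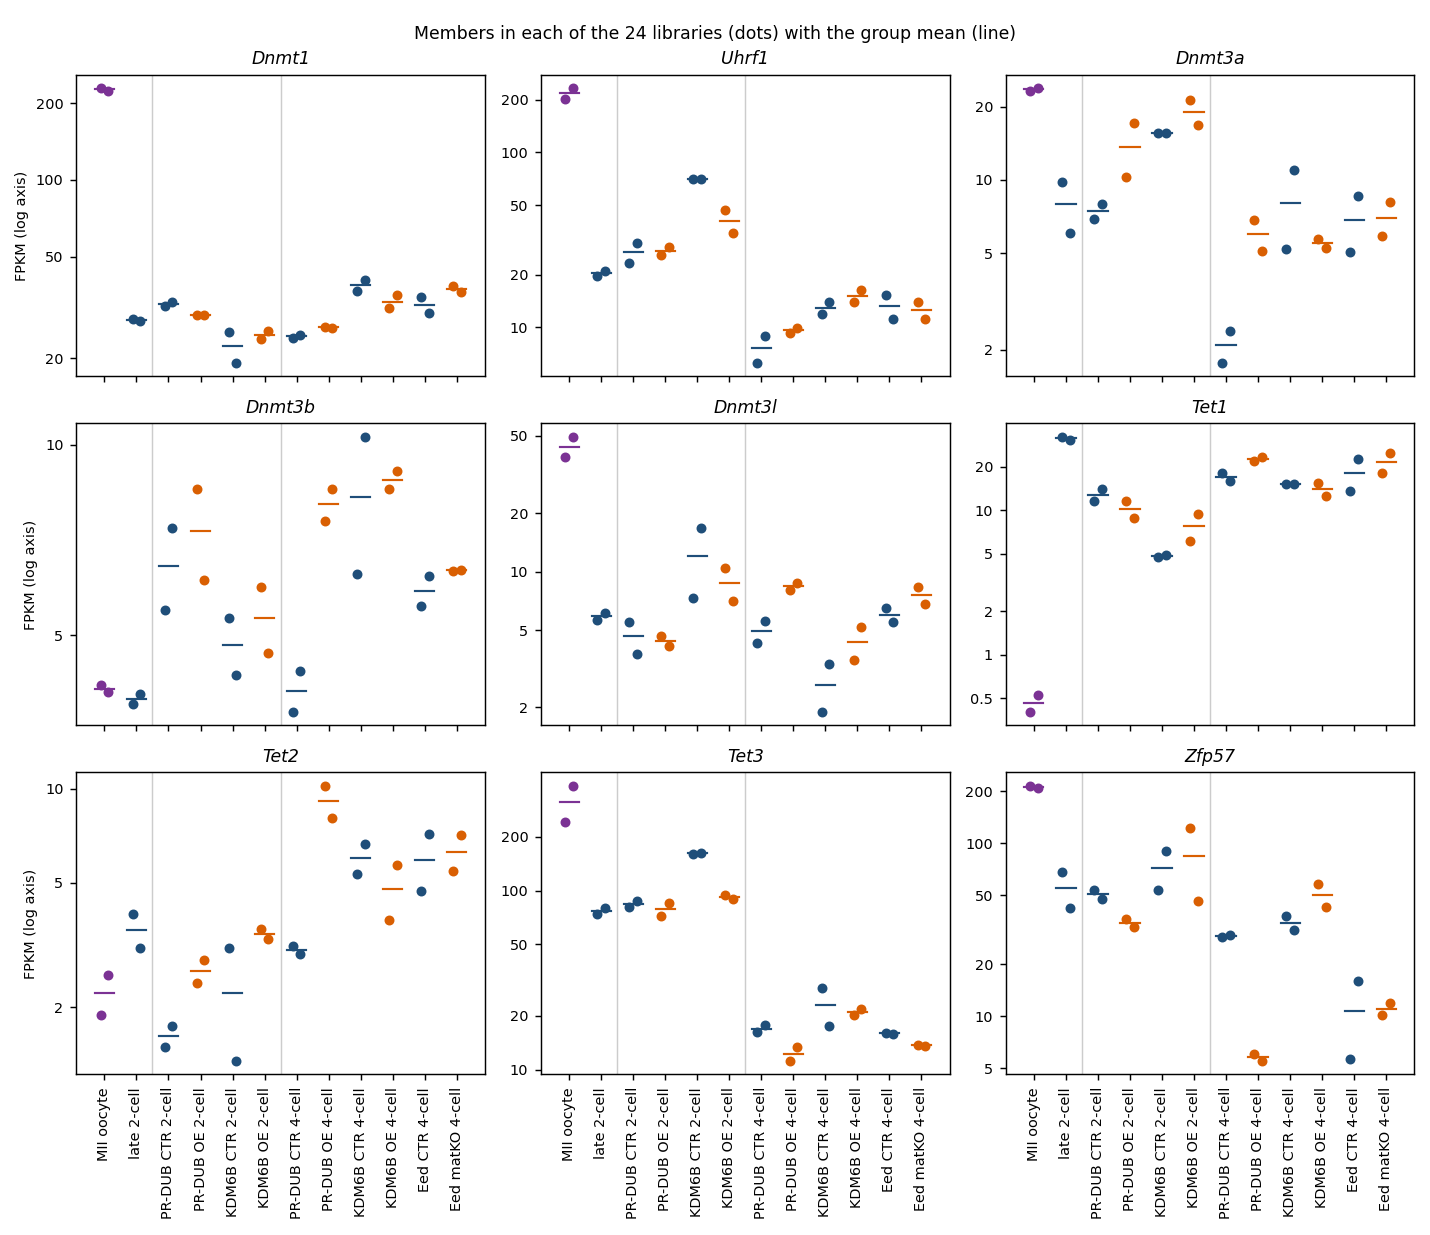
FPKM (log axis) of 9 members in the 24 libraries, 1 dot per library and a line at the mean of each group of 2, with MII oocytes in purple, controls and untreated embryos in blue, and OE or matKO in orange. Dnmt1, Uhrf1, Dnmt3a, Dnmt3l, Tet3 and Zfp57 stood highest in MII oocytes and Tet1 lowest there (0.403 and 0.523 FPKM). The 3 tables behind the groups were normalized separately.

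From MII oocyte to late 2-cell embryo, 7 of the 9 tested members were called, against 82.7% of all 13237 tested genes, so that a call by itself says little about these genes in this comparison. Of those, 6 fell and Tet1 rose. The median log2 change of the 9 was -1.96, beside -0.20 for all genes tested, which rescaling moved to 0.10. All tests are limma's moderated test on log2(FPKM + 1) with Benjamini-Hochberg adjustment over all genes tested, two-sided, called at an adjusted p under 0.05; the labels do not say that the 2 libraries of a group were separate collections, so the p-values measure the spread between these libraries.

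Both maintenance genes were abundant oocyte transcripts. Dnmt1 was at 229 and 224 FPKM in the MII libraries and at 28.4 and 28.0 FPKM in the late 2-cell libraries. The groups lay far apart, and Dnmt1 had a mean 8.04-fold lower in the embryos (log2 change -2.96, SE 0.10, limma adjusted p = 1.24e-05). The oocyte-specific form of Dnmt1 starts at an upstream first exon, and gene-level FPKM does not separate it from the somatic form. Uhrf1 was at 203 and 233 FPKM in MII oocytes and 19.5 and 21.1 FPKM in late 2-cell embryos. It fell 10.7-fold in mean FPKM (log2 change -3.36, SE 0.12, limma adjusted p = 1.38e-05), with no overlap between the groups.

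Of the de novo group, Dnmt3l, the cofactor of oocyte methylation, was at 38.9 and 49.3 FPKM in MII oocytes and at 5.62 and 6.14 FPKM in late 2-cell embryos. Its mean was 7.50-fold lower in the embryos (log2 change -2.70, SE 0.16, limma adjusted p = 4.39e-05). Dnmt3a was at 23.3 and 23.8 FPKM in MII oocytes and at 9.84 and 6.04 FPKM in late 2-cell embryos. It too fell, 2.97-fold in mean FPKM (log2 change -1.49, SE 0.23, limma adjusted p = 0.00143), with the 2 embryo libraries differing more from each other than the 2 oocyte libraries. Dnmt3b did not pass the test: it was at 4.17 and 4.06 FPKM in MII oocytes and 3.89 and 4.03 FPKM in late 2-cell embryos (log2 change -0.04, SE 0.16, limma adjusted p = 0.805).

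The erasers went in different directions. Tet1, at 0.403 and 0.523 FPKM in MII oocytes, was at 32.1 and 30.9 FPKM in late 2-cell embryos. Its mean was 68.0-fold higher there (log2 change 4.47, SE 0.16, limma adjusted p = 1.26e-05), and it was the one member under 1 FPKM in the oocyte besides Tdg. Tet3, the zygotic oxidase, was at 242 and 382 FPKM in MII oocytes and at 74.3 and 80.3 FPKM in late 2-cell embryos. It fell 4.04-fold in mean FPKM (log2 change -1.96, SE 0.22, limma adjusted p = 4.27e-04), with a wide spread between the oocyte libraries but no overlap. Tet2 was at 1.89 and 2.54 FPKM in MII oocytes and at 3.98 and 3.08 FPKM in late 2-cell embryos. The groups did not overlap, but Tet2 missed the threshold (log2 change 0.50, SE 0.20, limma adjusted p = 0.0581) and passed it when libraries were rescaled by median-of-ratios factors (0.76, adjusted p = 0.0106). Zfp57, the imprint reader, was at 214 and 209 FPKM in MII oocytes and at 68.0 and 42.4 FPKM in late 2-cell embryos. It fell 3.83-fold in mean FPKM (log2 change -1.96, SE 0.23, limma adjusted p = 4.44e-04).

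Tdg, whose enzyme completes the TET route by base excision, was listed at 0 in 19 of the 24 libraries. The other 5 values were 0.0191 FPKM in PR-DUB CTR 2-cell replicate 1, 0.322 in Eed CTR replicate 1, 0.171 and 0.305 in the Eed matKO libraries and 0.0245 in MII replicate 2. A value of 0 in these tables can be a failed estimate. Ahcy, another gene used by every cell, was also listed at 0 in the PR-DUB CTR 2-cell and late 2-cell groups. Its mean was 0.103 to 0.222 FPKM in the other 2-cell groups, 3.79 FPKM in MII oocytes and 2.67 FPKM in KDM6B CTR 4-cell. The annotation holds 2 processed copies of Tdg, Gm9855 and Tdg-ps, listed at no more than 0.135 and 0.138 FPKM in any library, between which and Tdg the authors' counting could split reads. Whether either applies to Tdg here was not tested.

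The controls of the PR-DUB and KDM6B sets compare the 2-cell with the 4-cell stage separately. In the PR-DUB controls 4 of 9 members were called, all lower at the 4-cell stage, against 56.7% of the 15055 genes tested. In the KDM6B controls all 9 tested members were called, 5 lower and 4 higher, against 64.2%. The median over the 9 was -0.54 in the first and -0.94 in the second, beside -0.04 and 0.28 for all genes tested (0.07 and 0.06 with rescaled libraries). KDM6B 4-cell libraries were sequenced on a NextSeq550 or a HiSeq2000 and the 2-cell ones on a NextSeq550, so stage and instrument cannot be told apart there, nor can set and instrument between the 4-cell controls.

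Uhrf1, Tet3 and Dnmt3a were called lower at the 4-cell stage in both sets of controls. Tet3 was at 81.0 and 87.8 FPKM in PR-DUB CTR 2-cell libraries and at 16.2 and 17.8 FPKM in the 4-cell ones. In the KDM6B controls it was at 161 and 162 FPKM and then at 28.8 and 17.4 FPKM. It was thus the member with the most negative change in both sets (log2 change -2.25, SE 0.19, adjusted p = 8.82e-07, and -2.79, SE 0.19, adjusted p = 1.23e-07, limma). Uhrf1 was at 23.4 and 30.3 FPKM in PR-DUB CTR 2-cell libraries and at 6.27 and 8.94 FPKM at the 4-cell stage. In the KDM6B controls it was at 70.5 and 70.0 FPKM and then at 11.9 and 14 FPKM. Its log2 change was -1.70 (SE 0.20, limma adjusted p = 1.53e-05) in the first and -2.36 (SE 0.20, limma adjusted p = 7.31e-07) in the second, with no overlap in either. Dnmt3a was at 6.93 and 7.94 FPKM in PR-DUB CTR 2-cell libraries and at 1.77 and 2.40 FPKM at the 4-cell stage, a log2 change of -1.46 (SE 0.30, limma adjusted p = 0.00135). In the KDM6B controls it was at 15.6 and 15.5 FPKM and then at 5.18 and 11 FPKM, a log2 change of -0.94 (SE 0.30, limma adjusted p = 0.0161). The last call rests on few libraries: without KDM6B CTR 4-cell replicate 1 the change was -0.47 (adjusted p = 0.193), without either 2-cell library the adjusted p was 0.0582 and 0.0589, and on the compared libraries alone it was 0.0519.

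Dnmt1 went in opposite directions in the 2 sets. It was at 32.1 and 33.1 FPKM in PR-DUB CTR 2-cell libraries and at 24 and 24.7 FPKM at the 4-cell stage (log2 change -0.41, SE 0.14, limma adjusted p = 0.0276). In the KDM6B controls it was at 25.4 and 19.2 FPKM and then at 36.8 and 40.5 FPKM (log2 change 0.78, SE 0.14, limma adjusted p = 4.13e-04). The groups overlap in neither set. The PR-DUB call was lost with rescaled libraries (-0.19, adjusted p = 0.254) and without any one of its 4 libraries (adjusted p = 0.0742 to 0.107), whereas the KDM6B call held under all 9 alternatives (0.43 to 0.97). The difference between the sets in this stage change was not tested.

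Tet1 rose in the KDM6B controls from 4.78 and 4.90 FPKM to 15.2 and 15.3 FPKM (log2 change 1.47, SE 0.20, limma adjusted p = 4.24e-05). The PR-DUB controls were already at 11.7 and 14 FPKM at the 2-cell stage and at 18.0 and 16.0 FPKM at the 4-cell stage, without passing the test (log2 change 0.38, limma adjusted p = 0.129), and passed with rescaled libraries (0.59, adjusted p = 0.0209). Tet2 rose in the KDM6B controls from 3.10 and 1.35 FPKM to 5.35 and 6.67 FPKM (log2 change 1.17, SE 0.27, limma adjusted p = 0.00233). In the PR-DUB controls it was at 1.49 and 1.74 and then 3.15 and 2.96 FPKM, with no overlap but an adjusted p of 0.0645 (0.0245 with rescaled libraries and 0.0427 on the compared libraries alone).

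Dnmt3l fell in the KDM6B controls from 7.29 and 16.8 FPKM to 1.90 and 3.34 FPKM (log2 change -1.78, SE 0.35, limma adjusted p = 6.98e-04). In the PR-DUB controls it was at 5.51 and 3.75 FPKM and then at 4.30 and 5.57 FPKM, with overlapping groups (limma adjusted p = 0.855). Dnmt3b rose in the KDM6B controls, from 5.32 and 4.32 FPKM to 6.24 and 10.3 FPKM (log2 change 0.64, SE 0.25, limma adjusted p = 0.0379). That call held in 3 of its 9 alternatives. It was lost without KDM6B CTR 4-cell replicate 2 (0.32), without either 2-cell library and with rescaled libraries (0.33, limma adjusted p = 0.260). The call was also lost with no filter on low values and on the compared libraries alone. Dnmt3b in the PR-DUB controls was at 5.48 and 7.39 FPKM and then at 3.78 and 4.39 FPKM (log2 change -0.54, limma adjusted p = 0.0819). Zfp57 was at 53.7 and 89.8 FPKM in KDM6B CTR 2-cell libraries and at 37.9 and 31.3 FPKM at the 4-cell stage (log2 change -0.99, SE 0.36, limma adjusted p = 0.0272). It lost the call without 2-cell replicate 2 (-0.63), without either 4-cell library and with no filter on low values. Zfp57 in the PR-DUB controls was at 53.6 and 47.6 FPKM and then at 28.5 and 29.4 FPKM, with no overlap (log2 change -0.78, limma adjusted p = 0.0786; 0.00292 on the compared libraries alone).

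**Figure D2:**
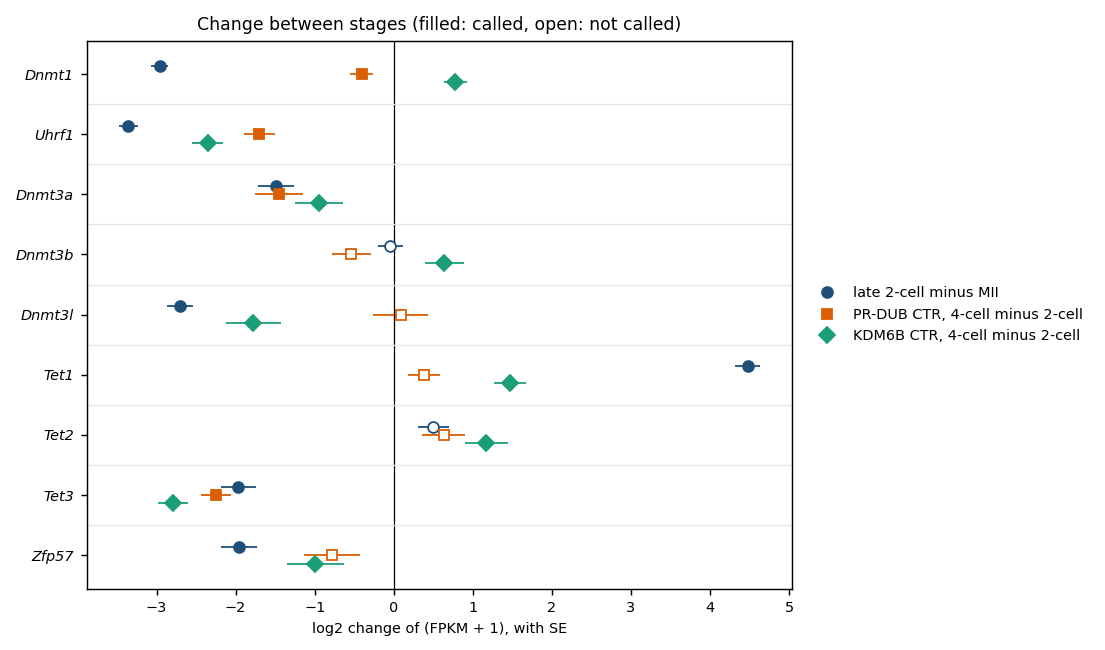
Log2 change of (FPKM + 1) with its SE for 9 members from MII oocyte to late 2-cell and from 2-cell to 4-cell controls of the PR-DUB and KDM6B sets; filled symbols passed the test and open ones did not. Uhrf1, Dnmt3a, Tet3 and Zfp57 lie below 0 in all 3 comparisons, with Zfp57 open in the PR-DUB controls. Tet1 and Tet2 lie above 0 in all 3. Tet1 is open in the PR-DUB controls (0.38), and Tet2 is filled in the KDM6B controls alone. Dnmt1 lies below 0 in 2 and above 0 in the KDM6B controls.

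The controls of the 2 sets did not start from the same levels at the 2-cell stage, where 6 of 9 members were called between them, against 27% of all genes tested (1436 higher and 2624 lower, or 2586 and 1813 with rescaled libraries). Uhrf1 (log2 change 1.37, SE 0.20, limma adjusted p = 4.75e-04) and Tet3 (0.93, SE 0.19, adjusted p = 0.00366) were higher in the KDM6B controls. Tet1 was lower there (-1.24, SE 0.20, adjusted p = 9.44e-04), and these 3 calls held under all 9 alternatives. Dnmt3a (0.97, adjusted p = 0.0322) and Dnmt3l (1.13, adjusted p = 0.0310) were called higher and Dnmt1 lower (-0.54, adjusted p = 0.0140). Each of those 3 lost its call without single libraries: Dnmt3a without any of the 4 (adjusted p = 0.0820 to 0.147), Dnmt3l without either PR-DUB library or KDM6B replicate 2 (0.0525 to 0.311) and Dnmt1 without the same 3 (0.0587 to 0.153). Dnmt1 also lost it with rescaled libraries (-0.28, adjusted p = 0.156), and Dnmt3l on the compared libraries alone (adjusted p = 0.0764) and with no filter on low values (0.0718). Dnmt3a lost it with no filter as well. The 7 oocyte genes moved with this difference: their sum was 702 and 739 FPKM in the KDM6B controls and 299 and 305 FPKM in the PR-DUB controls. Of genes that rise at the 4-cell stage and later, the sum over 7 listed was 117 and 132 FPKM against 218 and 241 FPKM. Kdm6b also differed between these controls, at 14588 to 14735 FPKM in the KDM6B set and 21.1 to 23.1 FPKM in the PR-DUB set. The part of these genes in the differences of Uhrf1, Tet3 and Tet1 was not tested.

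At the 4-cell stage 5 of 9 members were called between the controls, all higher in the KDM6B set, against 33.3% of all genes tested (3578 higher and 1436 lower, or 2297 and 2255 with rescaled libraries, when Dnmt3a alone of the members was called). Dnmt3a (log2 change 1.49, SE 0.30, limma adjusted p = 0.00292) kept its call under all 9 alternatives. Dnmt1 (0.64, adjusted p = 0.00464) lost it with rescaled libraries (0.34, adjusted p = 0.0787). Dnmt3b (0.83, adjusted p = 0.0216), Uhrf1 (0.71, adjusted p = 0.0168) and Tet2 (0.78, adjusted p = 0.0430) each lost it without PR-DUB CTR replicate 1 (adjusted p = 0.113, 0.152 and 0.117) or KDM6B CTR replicate 2 (0.178, 0.0949 and 0.181). Dnmt3b also lost it without PR-DUB CTR replicate 2 (0.0566), and Tet2 without that library (0.146) or KDM6B CTR replicate 1 (0.0651). The Tet2 call held under none of its 9 alternatives, and those of Dnmt3b and Uhrf1 were also lost with rescaled libraries and on the compared libraries alone. The 8 listed genes of the 2-cell activation wave (Zscan4c, Zscan4d, Tcstv1 and others) summed to 248 and 299 FPKM in the PR-DUB 4-cell controls and to 34.8 and 71.9 FPKM in the KDM6B ones. The oocyte genes summed to 65.9 to 68.5 FPKM in the former and 112 to 123 FPKM in the latter, and the genes of the 4-cell stage and later to 292 to 331 and 354 to 357 FPKM. Kdm6b was at 401 to 571 FPKM in the KDM6B 4-cell controls and 5.24 to 5.31 FPKM in the PR-DUB ones. The part of all these genes was not tested.

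All calls of a treatment on these genes came with PR-DUB overexpression at the 4-cell stage: Zfp57 fell to 0.20 of its control level while Tet2, Dnmt3a and Dnmt3b rose 1.97-fold to 2.99-fold. These 4 of 9 members were called, 3 higher and 1 lower, against 15.7% of the 15055 genes tested (1855 higher and 513 lower). The median log2 change over the 9 was 0.39 beside 0.13 for all genes. With libraries rescaled by median-of-ratios factors the median of all genes was -0.03 and the split turned to 1052 higher and 1271 lower; of the members Tet2 was then called higher and Zfp57 and Tet3 lower.

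Zfp57 was at 28.5 and 29.4 FPKM in PR-DUB CTR 4-cell libraries and at 6.06 and 5.52 FPKM in the OE libraries. Both OE libraries lay far below both controls, the mean OE level being 0.20 of the control (log2 change -2.14, SE 0.36, limma adjusted p = 0.00321). This call held under all 9 alternatives, with changes of -2.40 to -2.08 and adjusted p of at most 0.0239. The 2 OE libraries were also the lowest group mean of Zfp57 in the series (5.79 FPKM ± 0.385, SD, n = 2), next to the Eed controls at 5.60 and 15.9 FPKM, which overlap them and belong to a separately normalized table.

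Tet2 was at 3.15 and 2.96 FPKM in the controls and at 10.2 and 8.07 FPKM in OE. The groups did not overlap, and the OE libraries held the highest Tet2 levels of the 24 (log2 change 1.31, SE 0.27, 2.99-fold in mean FPKM, limma adjusted p = 0.00806). Without CTR replicate 2 the adjusted p was 0.0502, and without OE replicate 1 it was 0.0661 (changes of 1.28 and 1.16). Dnmt3a was at 1.77 and 2.40 FPKM in the controls, its lowest group of the series, and at 6.86 and 5.11 FPKM in OE. It rose 2.87-fold in mean FPKM (log2 change 1.17, SE 0.30, limma adjusted p = 0.0223). With rescaled libraries the change was 0.95 (adjusted p = 0.0541), and without CTR replicate 1, CTR replicate 2 or OE replicate 1 it was 1.03, 1.32 and 0.99 (adjusted p = 0.132, 0.0604 and 0.144). An antisense transcript, Dnmt3aos, overlaps exons of Dnmt3a, and Gm42567 overlaps those of Tet2; they were listed at no more than 0.765 and 1.72 FPKM in any library, and the labels do not state how strand entered the counting. Dnmt3b was at 3.78 and 4.39 FPKM in the controls and at 7.58 and 8.53 FPKM in OE. The groups did not overlap, yet of its 9 alternatives the call held in 1 (log2 change 0.83, SE 0.25, limma adjusted p = 0.0401). It was lost with rescaled libraries (0.59, adjusted p = 0.129), under the replicate block (adjusted p = 0.0509) and without any one of the 4 libraries (adjusted p = 0.105 to 0.182).

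The other 5 did not pass the test. Dnmt3l was at 4.30 and 5.57 FPKM in CTR and at 8.04 and 8.79 FPKM in OE (log2 change 0.67, SE 0.35, limma adjusted p = 0.229). Tet1 was at 18.0 and 16.0 FPKM in CTR and 21.8 and 23.4 FPKM in OE (0.39, adjusted p = 0.225). Uhrf1 was at 6.27 and 8.94 FPKM in CTR and 9.25 and 9.95 FPKM in OE (0.32, adjusted p = 0.330). In all 3 both OE libraries lay above both controls. The groups of all 9 members were separate in this comparison, and no share of all genes is given, so this says little about these 3. Tet3 was at 16.2 and 17.8 FPKM in CTR and at 11.3 and 13.4 FPKM in OE, in the other direction (-0.44, adjusted p = 0.149), and was called with rescaled libraries (-0.71, adjusted p = 0.0289). Dnmt1 was at 24 and 24.7 FPKM in CTR and 26.6 and 26.3 FPKM in OE (0.11, adjusted p = 0.673), a change that turned to -0.17 with rescaled libraries. The 2-cell activation genes, at 248 and 299 FPKM summed in CTR, were at 102 and 414 FPKM in the 2 OE libraries, and the oocyte genes were at 65.9 to 68.5 FPKM in all 4.

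At the 2-cell stage none of the 9 members was called for PR-DUB overexpression by limma, against 1.18% of all genes tested. Here and below, counts at an unadjusted p under 0.05 have no share of all genes beside them. Of the 9, 1 had an unadjusted p under 0.05. That was Dnmt3a, at 6.93 and 7.94 FPKM in CTR and at 10.3 and 17.1 FPKM in OE (log2 change 0.76, SE 0.30, adjusted p = 0.273). Both OE libraries lay above both controls, as they did at the 4-cell stage. Zfp57 was at 53.6 and 47.6 FPKM in CTR and at 36.3 and 32.7 FPKM in OE (log2 change -0.54, SE 0.36, adjusted p = 0.561). Tet2 was at 1.49 and 1.74 FPKM in CTR and at 2.39 and 2.84 FPKM in OE (0.47, SE 0.27, adjusted p = 0.492). The groups of both genes were separate without passing the test. Groups were separate for 5 of the 9 members here, a count without a share of all genes beside it. Tet1 was at 11.7 and 14 against 11.5 and 8.92 FPKM, and Dnmt1 at 32.1 and 33.1 against 29.6 and 29.4 FPKM, lower in both OE libraries. The log2 changes of Dnmt3b, Dnmt3l, Uhrf1 and Tet3 were 0.16, -0.04, 0.03 and -0.10, with overlapping groups. Tested directly, the PR-DUB effect at the 4-cell stage minus that at the 2-cell stage called none of the 9, against 1.74% of all genes, and 3 had an unadjusted p under 0.05. For Zfp57 that difference was -1.60 (SE 0.50, limma adjusted p = 0.126), and 0.0243 on the compared libraries alone.

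Libraries labelled KDM6B OE against those labelled CTR gave no call among the 9 at the 2-cell stage by limma, against 0.757% of all genes. At an unadjusted p under 0.05, for which no share of all genes is given, there were 3. Tet3 was at 161 and 162 FPKM in CTR and at 94.6 and 90.1 FPKM in OE (log2 change -0.80, SE 0.19, adjusted p = 0.0750). Uhrf1 was at 70.5 and 70.0 FPKM in CTR and at 47.0 and 34.5 FPKM in OE (-0.79, SE 0.20, adjusted p = 0.0840), and passed without OE replicate 1 (-1.0, adjusted p = 0.0483). Tet1 was at 4.78 and 4.90 FPKM in CTR and at 6.18 and 9.48 FPKM in OE (0.57, SE 0.20, adjusted p = 0.204). In these 3 the OE libraries lay between the KDM6B controls and the PR-DUB controls. The 7 oocyte genes moved the same way, with sums of 702 to 739 FPKM in CTR and 478 to 545 FPKM in OE, as did the 2-cell activation genes, with 549 to 560 and 324 to 478 FPKM; their part was not tested. Dnmt3a was at 15.6 and 15.5 against 21.3 and 16.8 FPKM, and Tet2 at 3.10 and 1.35 against 3.55 and 3.32 FPKM, both higher in OE without passing. Zfp57 spread most, with 53.7 and 89.8 FPKM in CTR and 123 and 46.1 FPKM in OE. The manipulation label of these 2 OE libraries names PR-DUB where their title names KDM6B; the title was followed.

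**Figure D3:**
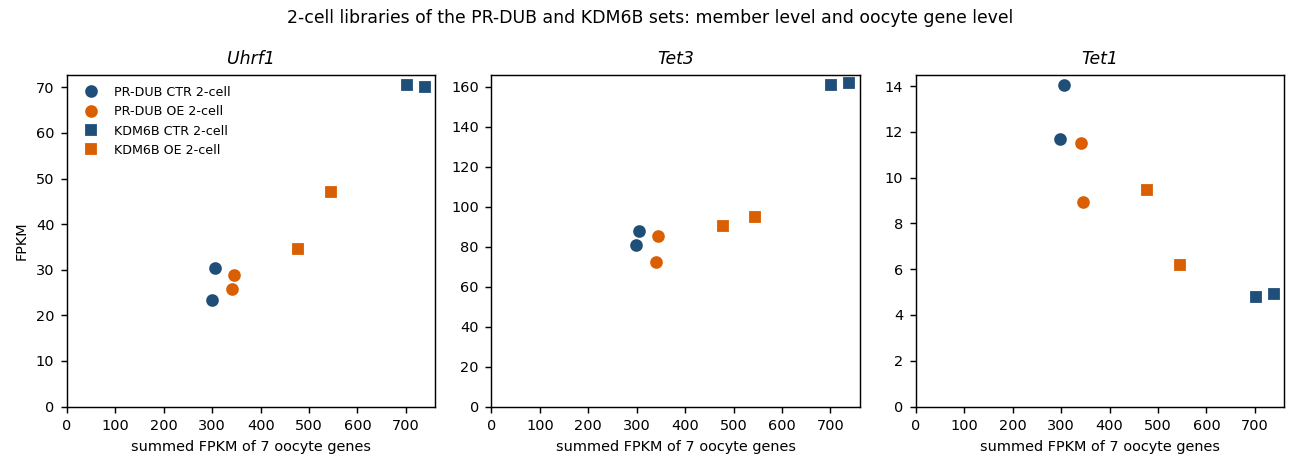
FPKM of Uhrf1, Tet3 and Tet1 (vertical axes, from 0) against the summed FPKM of 7 oocyte genes (horizontal axes) in the 8 2-cell libraries of the PR-DUB set (circles) and the KDM6B set (squares), controls in blue and OE in orange. The 2 KDM6B controls, at 702 and 739 summed FPKM, hold the highest Uhrf1 and Tet3 and the lowest Tet1, and the KDM6B OE libraries lie between them and the PR-DUB libraries on the horizontal axis.

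At the 4-cell stage the libraries labelled KDM6B OE against CTR again gave no call among the 9, against 0.359% of all genes. None of the 9 had an unadjusted p under 0.05 in limma. The log2 changes ran from -0.41 (Dnmt3a, at 5.18 and 11 FPKM in CTR and 5.73 and 5.22 FPKM in OE) to 0.57 (Dnmt3l, at 1.90 and 3.34 FPKM in CTR and 3.50 and 5.20 FPKM in OE). Zfp57 was at 37.9 and 31.3 FPKM in CTR and 57.9 and 42.7 FPKM in OE (0.52, SE 0.36, adjusted p = 0.628), so both OE libraries lay above both controls. The difference between the KDM6B effect at the 4-cell stage and at the 2-cell stage called none of the 9, against 0.139% of all genes. Of the 9, 3 had an unadjusted p under 0.05, a count without a share of all genes beside it.

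The OE minus CTR differences of the 2 sets were compared in the fit of the first table. Kdm6b was also high in the KDM6B controls (14588 to 14735 FPKM at the 2-cell stage and 401 to 571 FPKM at the 4-cell stage). The KDM6B effect here is therefore a difference between labels. At the 2-cell stage the PR-DUB effect minus the KDM6B effect called none of the 9 in limma, against 1.72% of all genes. Of the 9, 3 had an unadjusted p under 0.05, again without a share of all genes. At the 4-cell stage it called 3 of the 9, against 9.27% of all genes (1090 higher and 305 lower, or 532 and 728 with rescaled libraries). Zfp57 changed by -2.14 with PR-DUB and by 0.52 with KDM6B, a difference of -2.66 on the log2 scale (SE 0.50, limma adjusted p = 0.0107) that held under all 13 alternatives (adjusted p of at most 0.0388). For Tet2 the difference was 1.61 (SE 0.38, adjusted p = 0.0253) and for Dnmt3a 1.58 (SE 0.43, adjusted p = 0.0402). The Tet2 call was lost with rescaled libraries (1.32, adjusted p = 0.0543) and without 5 of the 8 single libraries (adjusted p = 0.0657 to 0.0883: PR-DUB CTR replicates 1 and 2, PR-DUB OE replicate 1, KDM6B CTR replicate 2 and KDM6B OE replicate 1). That of Dnmt3a was lost with rescaled libraries (1.31, adjusted p = 0.0817) and without any of the 8 but KDM6B CTR replicate 1 (1.11 to 1.77, adjusted p = 0.0585 to 0.126).

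Maternal loss of Eed called none of the 9 members, against 0.0171% of the 11679 genes tested, 2 genes in all; none of the 9 had an unadjusted p under 0.05 in limma, on 2 residual degrees of freedom. Dnmt1 was at 34.7 and 30.1 FPKM in CTR and 38.2 and 36.4 FPKM in matKO (log2 change 0.20, SE 0.14, adjusted p = 0.732), with both knockout libraries above both controls. Tet3 was at 16.1 and 15.8 FPKM in CTR and 13.8 and 13.7 FPKM in matKO (-0.20, SE 0.15, adjusted p = 0.758), with both below. Dnmt3l was at 6.52 and 5.5 FPKM in CTR and 8.28 and 6.82 FPKM in matKO (0.29, SE 0.21, adjusted p = 0.754). Dnmt3b was at 5.56 and 6.20 against 6.32 and 6.34 FPKM. Of the others, Zfp57 was at 5.60 and 15.9 FPKM in CTR and 10.2 and 11.9 FPKM in matKO, Tet1 at 13.5 and 22.6 against 18.2 and 25.1 FPKM, and Uhrf1 at 15.4 and 11.2 against 14 and 11.1 FPKM. The oocyte genes summed to 114 to 145 FPKM in CTR and 154 to 180 FPKM in matKO, and the 4-cell genes to 289 to 300 against 320 to 328 FPKM; their part was not tested. For 2 libraries a group the smallest two-sided p of an exact permutation test is 0.333.

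**Figure D4:**
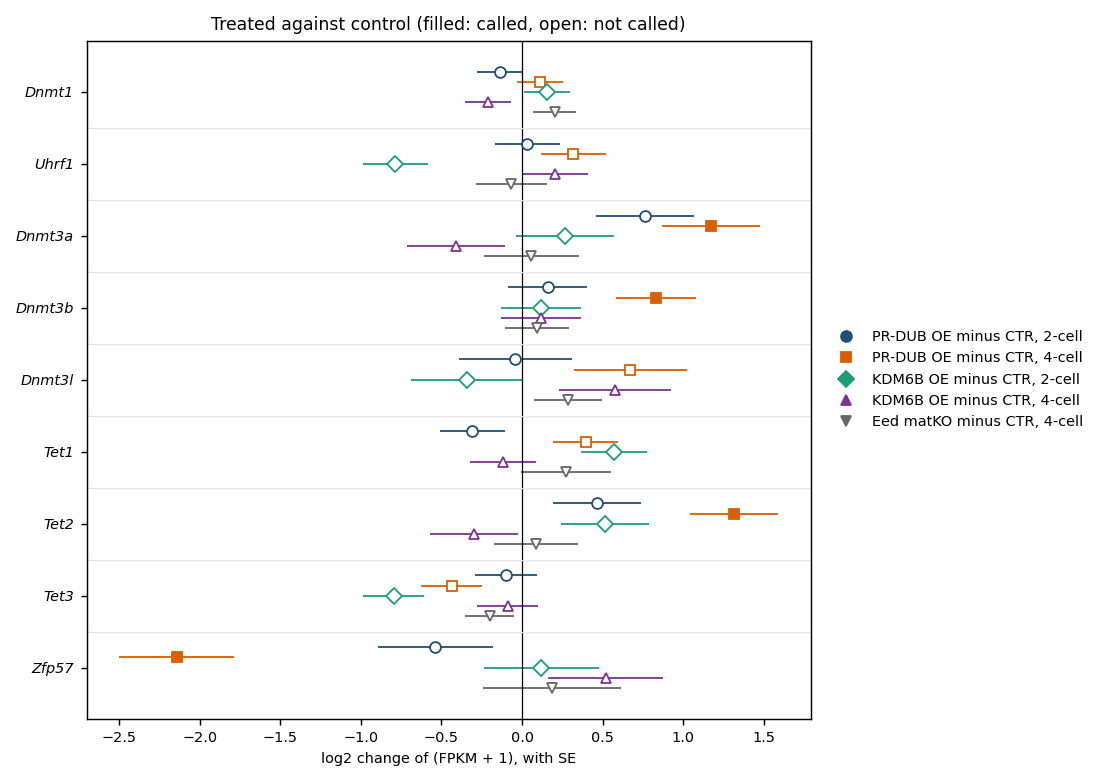
Log2 change of (FPKM + 1) with its SE for 9 members in the 5 comparisons of treated with control embryos, with filled symbols for calls and open ones for changes that missed the threshold. The 4 filled symbols all belong to PR-DUB at the 4-cell stage: Zfp57 at -2.14, Dnmt3b at 0.83, Dnmt3a at 1.17 and Tet2 at 1.31.

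Partner genes were followed in 7 lists of 72 genes in all, covering maintenance partners, imprint protection partners, methyl-CpG readers, other methyltransferases, de novo recruitment and histone cross-talk, demethylation and base excision repair, and methyl donor supply. With PR-DUB overexpression at the 4-cell stage 16 of 62 tested were called (25.8%, beside 15.7% of all genes), 14 higher and 2 lower, with a median of 0.29 beside 0.13. That direction depended on the scaling: with rescaled libraries 6 were called higher and 12 lower, with a median of 0.07 beside -0.03, and 8 of the 16 kept their call. Without 1 library at a time 6 to 9 were called. Shmt2, a mitochondrial enzyme of the folate cycle, went from a mean of 1.03 to 6.05 FPKM (log2 change 1.82, SE 0.26, limma adjusted p = 0.00154), and Ogt, the O-GlcNAc transferase that binds TET proteins, from 8.48 to 20.1 FPKM (1.13, SE 0.20, adjusted p = 0.00372); these 2 kept their calls under all 9 alternatives. Of the 8 methyl-CpG readers 2 rose: Zbtb33, which encodes Kaiso (1.47, SE 0.28, adjusted p = 0.00571), whose call was lost without CTR replicate 1, and Mbd1 (1.10), whose call was lost on leaving out each of the 4 libraries in turn. Of the 17 demethylation and repair genes 5 rose, among them Polb (0.95), the repair polymerase, and 2 fell, the stress-inducible genes Gadd45b (-1.55, SE 0.40, adjusted p = 0.0222) and Gadd45a (-1.22, SE 0.25, adjusted p = 0.00788). With rescaled libraries Polb, Gadd45b and Gadd45a kept their calls; Polb lost it without CTR replicate 2 or OE replicate 1, Gadd45a without CTR replicate 2 or OE replicate 2, and Gadd45b without 3 of the 4 libraries. Of the 9 donor genes 4 were called higher, Shmt2, Mtr (0.63), Mat2a (0.59) and Mat2b (0.46), of which Shmt2 alone was called with rescaled libraries. The single genes called among the 9 maintenance partners (Cdca7l, 1.28), the 12 imprint protection partners (Zfp42, 0.95) and the 6 de novo recruitment genes (Kdm1a, 0.87) also lost their calls with rescaled libraries, and the 1 tested gene of the other methyltransferases was not called. At the 2-cell stage limma called none of the 62 for PR-DUB (11 at an unadjusted p under 0.05). For KDM6B it called Dppa3 (0.57, adjusted p = 0.0474), whose product shields maternal methylation, and Parp1 (1.27, adjusted p = 0.00717) at the 2-cell stage; of 9 alternatives Dppa3 kept its call in 2 and Parp1 in 6, both losing it without CTR replicate 2 or OE replicate 2. None was called for KDM6B at the 4-cell stage (10 at an unadjusted p under 0.05), and for Eed none of 55 (5 at an unadjusted p under 0.05). As above, no share of all genes is given for these unadjusted counts. The called genes were 3.23% of the list for KDM6B at the 2-cell stage, beside 0.757% of all genes. Where no list gene was called, the share of all genes was 1.18% (PR-DUB, 2-cell), 0.359% (KDM6B, 4-cell) and 0.0171% (Eed).

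From MII oocyte to late 2-cell 22 rose and 21 fell of 60 (71.7%, beside 82.7% of all genes), with a median of 0.02 beside -0.20; with rescaled libraries 28 rose and 16 fell, with a median of 0.34 beside 0.10. Gadd45b rose from a mean of 0.262 to 59.8 FPKM (log2 change 5.60, limma adjusted p = 1.26e-05). Cbx3, which encodes HP1 gamma, rose from 0.720 to 63.1 FPKM (5.22, limma adjusted p = 1.13e-05). Cbx3 has processed copies between which the counting could split reads, which was not tested. Ehmt2, the H3K9 methyltransferase G9a, rose from 0.582 to 11.1 FPKM (2.93), and Zfp42 from 0.274 to 4.26 FPKM (2.04). Neil3, a base excision glycosylase, fell from 127 to 3.50 FPKM (-4.83, adjusted p = 8.68e-06), and Kdm1b, the oocyte demethylase that de novo methylation needs, from 63.5 to 21.3 FPKM (-1.53). In the donor list Shmt1 (3.56) rose and Mat1a fell (-2.88); of the readers Zbtb33 (-1.06) and Mbd2 (-0.96, lost with rescaled libraries) fell and Mbd6 (0.95) rose. In the other lists Trdmt1 fell (-1.20), and so did Cdca7l among the maintenance partners (-1.70).

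From the 2-cell to the 4-cell stage 38 of 62 were called in the PR-DUB controls, 15 higher and 23 lower (61.3%, beside 56.7%), and 46 in the KDM6B controls, 28 higher and 18 lower (74.2%, beside 64.2%). With rescaled libraries the splits were 18 higher and 19 lower, and 19 higher and 20 lower. Ehmt2 rose in both, from 5.29 to 37.2 FPKM in the first and from 1.66 to 21.2 FPKM in the second (log2 change 2.62 and 3.07). Kdm1b fell in both, from 23.8 to 11.3 and from 71.8 to 8.65 FPKM (-1.01 and -2.92). Trim28, the corepressor that ZFP57 recruits, rose in both, from 99.1 to 203 and from 55.2 to 161 FPKM. Dppa3 rose from 913 to 1530 FPKM and from 441 to 1742 FPKM (0.74 and 1.98). It has processed copies too, whose part was not tested.

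The order of the members by FPKM, which is per length, differed between stages. In the PR-DUB 2-cell controls Tet3 (84.4 FPKM ± 4.81, SD, n = 2), Zfp57 (50.6 ± 4.22), Dnmt1 (32.6 ± 0.692) and Uhrf1 (26.8 ± 4.88) stood above Tet1 (12.9 ± 1.68), Dnmt3a (7.44 ± 0.715), Dnmt3b (6.44 ± 1.35), Dnmt3l (4.63 ± 1.25) and Tet2 (1.61 ± 0.176). Dnmt3a overlapped Dnmt3b and Dnmt3b overlapped Dnmt3l, while the libraries of the other neighbours in that order did not overlap. In the PR-DUB 4-cell controls the order began with Zfp57 (28.9 ± 0.615) and Dnmt1 (24.3 ± 0.517), followed by Tet3 (17.0 ± 1.13) and Tet1 (17.0 ± 1.45), whose libraries overlapped, then Uhrf1 (7.60 ± 1.89). Below it came Dnmt3l (4.94 ± 0.895) and Dnmt3b (4.08 ± 0.428), which overlapped, then Tet2 (3.05 ± 0.135) and Dnmt3a (2.09 ± 0.446). Over all 24 libraries Dnmt3b varied least, from 3.78 to 10.3 FPKM, and Zfp57 ran from 5.52 to 214 FPKM.

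Across the 16 libraries of the PR-DUB and KDM6B sets, the genes most like each member in log2(FPKM + 1), among 7452 candidates, were found by Pearson's r, as a description over libraries that share groups and stages. Tet3 ran most closely with Slc7a11 (0.993) and Fbxw4 (0.990), and Uhrf1 with Atp2c1 (0.984) and Myh11 (0.982). Tet1 ran with Alppl2 (0.976) and Tceb2 (0.970), Dnmt1 with Ruvbl1 (0.956) and Stat2 (0.930), and Dnmt3a with Drosha (0.939) and Nupl1 (0.938). Tet2 ran with Nsmce1 (0.926) and Lsm7 (0.918), Dnmt3b with Bag3 (0.886) and Ash2l (0.879), Zfp57 with Mcm4 (0.872) and Hist1h2bh (0.865), and Dnmt3l with Setd1b (0.844) and Arhgap10 (0.843).

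On GRCm38 (mm10) the members lie at chr9:20907209-20959888 (Dnmt1, minus strand), chr17:56303321-56323486 (Uhrf1, plus), chr12:3806007-3914443 (Dnmt3a, plus), chr2:153649450-153687730 (Dnmt3b, plus), chr10:78041947-78063622 (Dnmt3l, plus), chr10:62804570-62908996 (Tet1, minus), chr3:133463679-133545139 (Tet2, minus), chr6:83362373-83459084 (Tet3, minus), chr17:37001163-37010635 (Zfp57, plus) and chr10:82629828-82650799 (Tdg, plus), all protein-coding genes of GENCODE vM21. Dnmt3l shares exonic sequence with Aire on the other strand, which was listed at no more than 2.72 FPKM.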

How the data were processed

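RNA was sequenced from 24 libraries of pooled embryos or oocytes with a low-input stranded SMART-Seq kit, per the labels' protocols. The deposited values are FPKM made by the authors; Trim Galore 0.6.5, HISAT2 2.1.0, StringTie 1.3.3b and mm10 are named in the submitters' processing notes. The first table holds 16 libraries, the second the 4 Eed libraries and the third the 4 MII and late 2-cell libraries (columns headed 30hpf), the third with a larger gene set. The labels name no annotation release. Groups follow the titles, except that the Eed knockouts, titled OE, follow the manipulation field. No library pair was identical.

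Each table was analysed on its own. Genes with at least 1 FPKM in at least 2 libraries were tested with limma 3.58.1 in R 4.3.3 (eBayes with trend) on log2(FPKM + 1), which understates the changes of low genes; the fit of the first table had 8 groups and 8 residual degrees of freedom, the others 2. A gene was called at a Benjamini-Hochberg adjusted p under 0.05. Errors are SE of the fit, or SD of FPKM with n = 2. The fit was run on simulated data with changes put into genes well above the filter. That run tests neither low genes nor shifts in scaling between libraries, and its recovery is not reported here. The alternatives were a pseudocount of 0.1, no filter, libraries rescaled by median-of-ratios factors, the replicate number as a block, a fit on the compared libraries alone, and each compared library left out. The members and gene lists were chosen with earlier results of these data known. All 10 members are named; of a list, the called genes with the largest changes, up to 4 per list and comparison, some of which are not reported here; and for likeness the 2 genes with the highest Pearson r and a mean of at least 5 FPKM. Read counts were not used here; the fragment numbers given are estimates that bound counting error only, since PCR copies are not independent molecules. Positions, overlaps and biotypes came from GENCODE vM21, which held 45143, 45143 and 55394 of the identifiers, and promoter windows from RefSeq on GRCm38.p6, where all 10 members had 19 windows.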

Additional observations from a re-analysis of the deposited data

Results flagged for a closer look

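The OE minus CTR differences of the PR-DUB and KDM6B sets, the latter taken by label, were called different at the 4-cell stage for 3 members. The test was of the difference itself in limma, and 9.27% of all genes tested were called in it. The Zfp57 difference kept its call under all 13 alternatives, that of Tet2 under 5 and that of Dnmt3a under 3. The last 2 were both lost with rescaled libraries and on the compared libraries alone. That of Tet2 was also lost with a pseudocount of 0.1, and that of Dnmt3a with no filter on low values. The PR-DUB effect minus the KDM6B effect was -2.66 on the log2 scale for Zfp57, 1.61 for Tet2 and 1.58 for Dnmt3a. For Zfp57 both PR-DUB OE libraries (6.06 and 5.52 FPKM) lay below their controls (28.5 and 29.4 FPKM), and both KDM6B OE libraries (57.9 and 42.7 FPKM) above theirs (37.9 and 31.3 FPKM). For Tet2 the PR-DUB OE libraries lay above their controls, and the KDM6B groups overlapped (5.35 and 6.67 FPKM in CTR, 3.81 and 5.72 FPKM in OE). For Dnmt3a the same held (KDM6B CTR at 5.18 and 11 FPKM, OE at 5.73 and 5.22 FPKM).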

How the results depend on the processing

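Of the 38 member results past the threshold, none changed direction under the alternatives that gave a value: 261 of those alternatives kept the call and 84 did not. All 7 calls between MII oocyte and late 2-cell kept theirs; for Tet1 the 2 alternatives that leave out a late 2-cell library gave no value, because the filter then removes it. Of the called list genes, 2 of 16 for PR-DUB OE at the 4-cell stage, 0 of 2 for KDM6B OE at the 2-cell stage, 28 of 38 and 30 of 46 in the PR-DUB and KDM6B controls between stages, and 34 of 43 from MII to late 2-cell kept their call under every alternative; 1, in the KDM6B controls, changed direction in at least 1.

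Numbers of members called moved as follows, with the share of all genes called under the same setting in brackets where given. That share is not given for the counts between stages or for the list genes. In the main fit it was 56.7% and 64.2% for the PR-DUB and KDM6B controls between stages. For PR-DUB OE at the 4-cell stage it was 15.7%, and for KDM6B OE 0.757% at the 2-cell and 0.359% at the 4-cell stage. With rescaled libraries the KDM6B against PR-DUB controls at the 4-cell stage gave 1 in place of 5 (30.2%), and the PR-DUB minus KDM6B effect there 1 in place of 3 (8.37%). On the compared libraries alone these gave 2 (31.2%) and 1 (0.938%), and the PR-DUB effect at 4-cell minus 2-cell gave 1 in place of 0 (1.34%). Leaving out 1 library at a time gave 1 to 3 for PR-DUB OE at the 4-cell stage (6.79% to 8.43%), 0 to 1 for KDM6B OE at the 2-cell stage (0.0401% to 2.35%), 3 to 5 and 2 to 4 for the controls at the 2-cell and 4-cell stages (15.3% to 19.5% and 22.4% to 27.2%), and 0 to 1 and 1 to 3 for the PR-DUB minus KDM6B effect at those stages (0.0134% to 3.45% and 3.89% to 10.2%). Between stages, the PR-DUB controls gave 3 to 6 in place of 4 and the KDM6B controls 6 to 9 in place of 9 over their alternatives. Of list genes, leaving out 1 library gave 6 to 9 for PR-DUB OE at the 4-cell stage, 0 to 5 for KDM6B OE at the 2-cell stage and 0 to 1 at the 4-cell stage; for KDM6B OE at the 2-cell stage no filter, rescaling and the replicate block each gave 1 and the compared libraries alone 0, in place of 2. For all genes, rescaling turned 148 higher and 29 lower into 69 and 49 for PR-DUB OE at the 2-cell stage, 91 and 23 into 60 and 28 for KDM6B OE there, 87 and 172 into 94 and 239 for the difference of those effects, 20 and 34 into 21 and 23 for KDM6B OE at the 4-cell stage, and 155 and 107 into 94 and 175 for the PR-DUB effect at 4-cell minus 2-cell.

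Signs of uncalled log2 changes turned with rescaled libraries for Uhrf1 in PR-DUB OE at the 2-cell stage (-0.068), Dnmt1 in PR-DUB OE at the 4-cell stage (-0.17) and Dnmt3b from MII to late 2-cell (0.25). Leaving out 1 library at a time, the change in PR-DUB OE at the 2-cell stage ran from -0.053 to 0.37 for Dnmt3b, -0.27 to 0.19 for Dnmt3l, -0.15 to 0.21 for Uhrf1 and -0.21 to 0.017 for Tet3. In KDM6B OE at the 2-cell stage it ran from -0.039 to 0.35 for Dnmt1, -0.028 to 0.26 for Dnmt3b, -0.89 to 0.21 for Dnmt3l and -0.58 to 0.82 for Zfp57. In KDM6B OE at the 4-cell stage it ran from -0.89 to 0.065 for Dnmt3a, -0.20 to 0.44 for Dnmt3b, -0.26 to 0.019 for Tet1 and -0.43 to 0.26 for Tet3. In the PR-DUB controls between stages it ran from -0.14 to 0.31 for Dnmt3l. In Eed matKO it ran from -0.28 to 0.39 for Dnmt3a, -0.28 to 0.15 for Uhrf1, -0.078 to 0.62 for Tet1, -0.17 to 0.34 for Tet2 and -0.49 to 0.86 for Zfp57. The cause of these changes was not tested.

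Groups share replicate numbers, but the labels do not say what a number stands for, and the deviations of same-numbered libraries correlated at -0.06 to 0.04 across genes. With the replicate block, 3 in place of 4 members were called for PR-DUB OE at the 4-cell stage (Dnmt3b 0.83, adjusted p = 0.0509) and 4 in place of 5 for the 4-cell controls (Tet2 0.78, adjusted p = 0.0542); the block changed no other member's call. With 2 libraries a group, the spread within a group is poorly known.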
